A study of Mus musculus with 48 samples.

Results

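The early and the late part of the rest phase of mouse kidney were compared in 16 of the 48 libraries of the series. The libraries were chosen by their labelled time: ZT02 and ZT04 formed the early window and ZT06 and ZT08 the late window, where ZT (Zeitgeber time) counts hours from lights on and mice, being nocturnal, mostly rest while the lights are on. Each window held 4 pools of kidneys, 2 per timepoint, and every pool had given 1 RNA-seq library of ribosome-depleted total RNA and 1 RPF-seq library, which sequences the footprints that ribosomes protect on mRNA. All animals were male C57BL/6JRj mice aged 11 to 12 weeks, each pool held kidneys of 2 mice, food was freely available and the light and dark periods lasted 12 h each, so that the labels set the windows apart by time alone and no group carried a mutation or a drug. Whole kidneys were lysed, so a change in a transcript cannot be told apart from a change in the share of the cells that carry it, nor fewer cells of a type from less RNA per cell.

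The circadian clock of mammals is a feedback loop of transcription. The activators BMAL1 (encoded by Arntl) and CLOCK or NPAS2 bind E-box elements and switch on the genes of their own repressors, the PER and CRY proteins, as well as the nuclear receptors REV-ERBα and REV-ERBβ (Nr1d1, Nr1d2), which in turn silence Arntl, Npas2 and Nfil3 through ROR elements. The PAR bZIP factors Dbp, Tef and Hlf and their antagonist NFIL3 carry the rhythm onward through D-box elements, and in the kidney the loop is known to govern the excretion of water and salts.

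The elements below are shown because they belong to clock genes whose read-outs are described next. They were looked for on both strands in the 250 bases before each annotated start of the RefSeq annotation (build GRCm38.p6), which held a start for 16 of the 18 clock genes looked up. Windows are written 5′ to 3′ on the strand of the gene, with the element in capitals. The E-box CACGTG was present in 5 of these 16 genes, Ciart, Bhlhe41, Tef, Per1 and Cry1, and the windows of Per1 and Cry1 are not shown. It was present in 6.02% of all 32851 promoters searched, a share of promoters and not of the 27025 genes they belong to. Ciart, a repressor of the CLOCK and BMAL1 pair, had 3 such matches.
Ciart, chr3:95882330-95882353: atctagagtCACGTGttgccggta
Ciart, chr3:95882272-95882295: agggggaggCACGTGcagaaccgc
Ciart, chr3:95882258-95882281: gcagaaccgCACGTGtctgggagg
Bhlhe41, chr6:145865559-145865582: tacgttccgCACGTGagctgggtg
Tef, chr15:81802537-81802560: ctgtggctcCACGTGctgcagctg
Tef, chr15:81811267-81811290: ctggcccagCACGTGtctacatcg
The D-box TTATGTAA was found in 0.819% of all promoters and, among the clock genes, in Per3 alone, which had 2 matches.
Per3, chr4:151044854-151044879: acccgcgcgTTATGTAAggtactcgg
Per3, chr4:151044807-151044832: cgcccgcggTTATGTAAcccccgccg
The ROR element core TAGGTCA was found in 2.23% of all promoters and, among the clock genes, in Nfil3, where it lay on the opposite strand and so reads TGACCTA.
Nfil3, chr13:52981040-52981060: gctcggaacTGACCTActaac
The E-box that ends in TT (CACGTT, in 3.85% of all promoters) was matched in 3 clock genes, Nr1d1, Cry1 and Cry2, and the cAMP response element TGACGTCA (1.55%) in Hlf. Each match is a description of the letters in these windows and not of binding, and no match elsewhere says only that these letters were not in the window searched.

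Levels are given as RPKM, read density per length of coding sequence and per library depth, as normalised by the authors. Changes are late minus early on the log2(RPKM + 0.1) scale, which understates the change of low genes, and a gene is called changed at an adjusted p under 0.05 (limma, Benjamini-Hochberg over the 11863 genes whose median RPKM was at least 0.5 in both assays). In RNA-seq 1784 genes passed, 801 of them higher late (6.75% of the genes tested) and 983 lower (8.29%), and 162 of these changed by more than 1.5-fold. In RPF-seq none of the 11863 genes (0%) passed with all 8 libraries, where the lowest adjusted p was 0.098 and 1478 genes had an unadjusted p under 0.05. The second pool of ZT04 stood apart there: 59 of the genes tested were listed at 0 in its RPF-seq library and none in the other 15 libraries of the windows. Without that library, 51 genes were higher late (0.43%) and 38 lower (0.32%), and changes in RPF-seq are given from those 7 libraries unless stated otherwise. Levels in RPF-seq, including means and SD, are given with that library, so a level and a change can rest on different libraries. Leaving out a further library left between 0 and 45 RPF-seq calls, with none once either ZT02 library or the first ZT08 library was removed and 1 without the second ZT08 library, so each RPF-seq call below rests on those libraries. RNA-seq kept calls without any 1 library, from 385 without the first ZT08 library to 3381 without the first ZT04 library. Of the 80 genes named in the text that were called in RNA-seq, 27 were called in every such fit. The calls of 51 were lost without the first ZT08 library, of 40 without the first and 40 without the second ZT02 library, and of 2 to 22 without each of the others.

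Among the RNA-seq libraries, the share of G and C in a gene's coding sequence moved with the change. The Spearman correlation between coding GC and the log2 change, across 11784 genes that are not independent of each other, was 0.63 in RNA-seq, 0.31 in RPF-seq with all 8 libraries and 0.15 without the second ZT04 library. From the decile of genes with the lowest coding GC to that with the highest, the median RNA-seq change rose from -0.23 to 0.19. The pools of ZT04 differed in this respect, since the deviation of each gene from its mean over the 8 libraries correlated with GC at 0.26 in the first RNA-seq library and at -0.70 in the second. After a smooth GC trend was removed from each library, a correction chosen after this trend was seen, 320 genes were higher late (2.72% of 11784) and 219 lower (1.86%), and 397 genes were called in the same direction with and without it. The same correction left 33 higher (0.28%) and 54 lower genes (0.458%) in RPF-seq. What part the GC trend has in any single RNA-seq change was not tested, and calls that did not hold after the correction are named as such. Relative depth, taken from the steps between low RPKM values, ranged from 0.907 to 1.61 over the 8 RNA-seq libraries and from 0.816 to 1.53 over the 8 RPF-seq libraries, where 1 is the middle of each assay's 24 libraries.

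**Figure D1:**
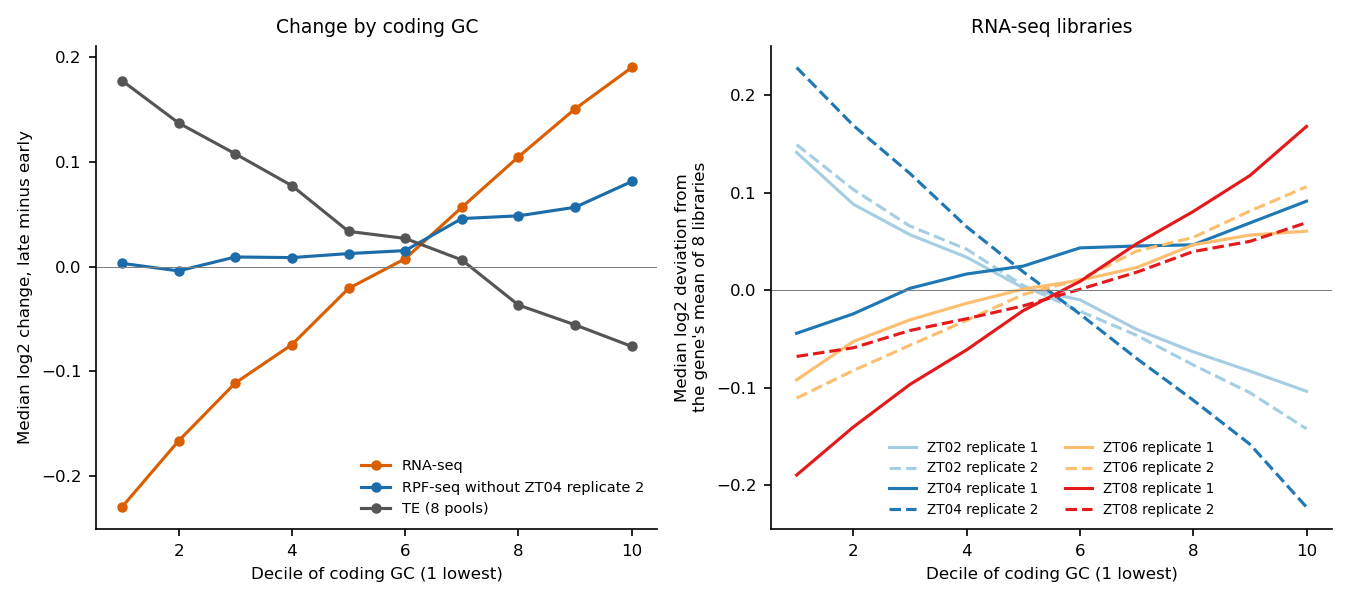
Left, median log2 change from early to late rest phase (y axis) in 10 groups of genes ordered by coding GC (x axis, decile, 1 lowest) for RNA-seq, RPF-seq without the second ZT04 library and TE (the ratio of RPF to RNA, 8 pools), and right, the median log2 deviation of each RNA-seq library from the genes' means over 8 libraries, 1 line per library. The RNA-seq change climbs from -0.23 to 0.19, the TE change falls from 0.18 to -0.076, and on the right the first ZT04 library runs with the late libraries and the second with those of ZT02.

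Most activator genes of the clock fell between the windows in RNA-seq. Arntl, which encodes BMAL1, gave 19.4 and 23.6 RPKM at ZT02, 11.3 and 8.26 at ZT04, 4.55 and 4.72 at ZT06, and 2.24 and 0.961 at ZT08 in RNA-seq. All late pools lay below all early pools, and the lowest values were those of ZT08. The change was -2.41 ± 0.45 (SE, adjusted p = 0.011), and the RPF-seq values were 15.6 and 14.3 RPKM at ZT02, 8.67 and 7.55 at ZT04, 4.31 and 4.06 at ZT06, and 1.80 and 0.597 at ZT08. The RPF-seq change of -2.50 ± 0.55 (SE) did not pass the threshold (adjusted p = 0.073), although the 2 windows did not overlap in RPF-seq either. Npas2, a paralog of Clock that also pairs with BMAL1, went from 8.08 ± 3.67 RPKM early (SD, n = 4) to 2.04 ± 1.34 late, a change of -2.04 ± 0.46 (SE, adjusted p = 0.018). In RPF-seq, Npas2 gave 4.32, 5.27, 3.36 and 1.78 RPKM early against 1.51, 1.22, 0.262 and 0.479 late (-2.41 ± 0.46 SE, adjusted p = 0.0503). Clock itself moved far less, from 24.8 ± 2.49 RPKM early (SD, n = 4) to 19.2 ± 1.30 late in RNA-seq (-0.37 ± 0.082 SE, adjusted p = 0.017), and was not called after GC correction (adjusted p = 0.18). Rora, a nuclear receptor that activates Arntl through ROR elements, stayed between 27.9 and 33.9 RPKM early and between 27.4 and 33.8 late, with a change of -0.024 ± 0.082 (SE). Of the 5 activator genes, 4 were called lower in RNA-seq (2 after GC correction), Arntl, Npas2 and Clock among them, and none was called in RPF-seq. Beside them, 8.29% of all genes were lower in RNA-seq, 1.86% after GC correction and 0.32% in RPF-seq. Timepoints within a window were not modelled, so a trend inside a window counted as spread. With the 4 timepoints modelled on all RPF-seq libraries of the windows, 26 genes were called there. With 1 library left out at a time, the RNA-seq call of Arntl held each time. Otherwise the adjusted p was highest without the first ZT08 library for Npas2 (0.058) and Clock (0.057).

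Of the 10 repressor genes, 8 were called higher in RNA-seq (6 after GC correction) and none lower, and 3 were called higher in RPF-seq. Over all genes the higher share was 6.75% in RNA-seq, 2.72% after GC correction and 0.43% in RPF-seq. Ciart had the second largest increase of all clock genes, with 0.237 and 0.174 RPKM at ZT02, 0.679 and 0.906 at ZT04, 1.53 and 3.47 at ZT06, and 6.10 and 10.5 at ZT08. Every step from one timepoint to the next was upward, and the change was 3.09 ± 0.55 (SE, adjusted p = 0.0091). In RPF-seq it gave 0.316, 0.261, 1.37 and 0.776 RPKM early against 1.47, 2.58, 6.24 and 12.1 late (2.81 ± 0.69 SE, adjusted p = 0.088). Nr1d1, the gene of REV-ERBα, showed 14.95 and 18.9 RPKM at ZT02, 32.8 and 33.6 at ZT04, 52.5 and 45.7 at ZT06, and 53.3 and 60.1 at ZT08 in RNA-seq and 22.3 and 23.2 RPKM at ZT02, 38.96 and 43.8 at ZT04, 57.7 and 53.5 at ZT06, and 63.9 and 61.4 at ZT08 in RPF-seq. The late pools were above the early ones in both assays, with the ZT06 pools already near the ZT08 values. Its changes were 1.15 ± 0.22 (SE, adjusted p = 0.012) in RNA-seq and 1.11 ± 0.17 (SE, adjusted p = 0.038) in RPF-seq. Nr1d2, the gene of REV-ERBβ, gave 28.6, 24.8, 43.7 and 59.6 RPKM early against 56.9, 58.2, 68.9 and 76.9 late in RNA-seq, where the second ZT04 pool already reached the late range, and 10.6, 10.3, 20.2 and 23.2 RPKM early against 29.5, 27.000, 38.2 and 35.2 late in RPF-seq, where the windows did not overlap. The rise was 0.81 ± 0.23 (SE, adjusted p = 0.035) in RNA-seq and 1.30 ± 0.22 (SE, adjusted p = 0.04) in RPF-seq. With any 1 library left out, the RNA-seq calls of Ciart and Nr1d1 held each time. For the rest the highest adjusted p arose without the first ZT02 library for Nr1d2 (0.1).

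Period and cryptochrome genes were less uniform. Per3 rose from 3.39 ± 1.21 RPKM early (SD, n = 4) to 8.74 ± 3.12 late in RNA-seq (1.34 ± 0.28 SE, adjusted p = 0.014) and its RPF-seq means were 0.720 RPKM early and 1.89 late, where the change of 1.58 ± 0.34 (SE) was not called (adjusted p = 0.067). Per2 had 3.80, 1.90, 3.14 and 1.84 RPKM early against 3.51, 4.22, 8.69 and 10.5 late in RNA-seq. The first ZT06 pool was still within the early range and the ZT08 pools were clearly above it. The change was 1.22 ± 0.34 (SE, adjusted p = 0.035), with an adjusted p of 0.089 after GC correction. For Per1 the RNA-seq values were 3.50, 2.93, 3.04 and 2.56 RPKM early against 2.68, 4.91, 7.51 and 8.05 late, with the first ZT06 pool inside the early range, and the change of 0.81 ± 0.28 (SE) was not called (adjusted p = 0.069). Cry1 had 7.49, 5.42, 3.67 and 1.95 RPKM early against 1.54, 2.21, 2.62 and 1.91 late: it was highest at ZT02, the second ZT04 pool lay inside the late range, and its change of -0.99 ± 0.33 (SE) was not called (adjusted p = 0.061). Cry2 changed by 0.54 ± 0.14 (SE, adjusted p = 0.028) in RNA-seq, from 6.31 to 9.22 RPKM, with an adjusted p of 0.12 after GC correction. The DEC genes, which encode basic helix-loop-helix repressors that compete for E-boxes, both rose in RNA-seq: Bhlhe40 from 43.4 ± 6.81 to 68.1 ± 14.5 RPKM (SD, n = 4, change 0.63 ± 0.14 SE, adjusted p = 0.017) and Bhlhe41 from 0.880 ± 0.277 to 2.75 ± 1.36 RPKM (change 1.48 ± 0.32 SE, adjusted p = 0.016). Bhlhe41 was also called in RPF-seq, by 1.48 ± 0.24 (SE, adjusted p = 0.038). When libraries were left out 1 by 1, the highest RNA-seq adjusted p was found without the first ZT08 library for Per3 (0.052), Per2 (0.11), Cry2 (0.086), Bhlhe40 (0.055) and Bhlhe41 (0.054).

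The largest increase of all genes tested, in both assays, was that of Dbp, a PAR bZIP activator. In RNA-seq it gave 3.23 and 1.67 RPKM at ZT02, 17.5 and 20.1 at ZT04, 36.8 and 40.9 at ZT06, and 79.4 and 106 at ZT08, and in RPF-seq 3.34 and 1.33 RPKM at ZT02, 12.5 and 15.7 at ZT04, 36.8 and 37.3 at ZT06, and 61.6 and 77.9 at ZT08. Each timepoint lay above the one before it, and footprints and RNA moved over a like range. The changes were 3.14 ± 0.69 (SE, adjusted p = 0.016) in RNA-seq and 3.68 ± 0.59 (SE, adjusted p = 0.038) in RPF-seq. Tef followed at a higher level and with a smaller step, from 56.7 ± 14.999 RPKM early (SD, n = 4) to 106 ± 22.7 late in RNA-seq (0.92 ± 0.18 SE, adjusted p = 0.013) and from 68.01 ± 15.6 RPKM early (SD, n = 4) to 129.7 ± 18.4 late in RPF-seq (1.04 ± 0.16 SE, adjusted p = 0.038). Hlf had 24.4, 25.9, 24.8 and 20.3 RPKM early against 24.2, 24.3, 34.1 and 35.1 late in RNA-seq, with only the ZT08 pools above the early range, and 26.99, 24.4, 31.9 and 28.1 RPKM early against 38.1, 34.4, 46.02 and 48.1 late in RPF-seq, where all late pools were above. Neither change was called for Hlf (0.29 ± 0.13 SE, adjusted p = 0.15, and 0.58 ± 0.13 SE, adjusted p = 0.073). Nfil3, which represses the same D-box targets, moved the other way, with 16.03 and 14.3 RPKM at ZT02, 6.76 and 4.58 at ZT04, 3.56 and 4.07 at ZT06, and 2.52 and 2.27 at ZT08 in RNA-seq and 10.9 and 12.7 RPKM at ZT02, 5.78 and 3.41 at ZT04, 2.79 and 2.66 at ZT06, and 2.11 and 1.91 at ZT08 in RPF-seq. Early and late pools did not overlap in either assay, and the decrease was -1.58 ± 0.35 (SE, adjusted p = 0.017) in RNA-seq and -1.94 ± 0.25 (SE, adjusted p = 0.029) in RPF-seq. With single libraries left out, the RNA-seq call of Tef held each time. Otherwise the adjusted p was highest without the first ZT08 library for Dbp (0.054) and Nfil3 (0.056).

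Over the 19 clock genes, the sign of the change was the same in both assays for all 19. In RNA-seq 15 were called (11 after GC correction) and in RPF-seq 6, beside 15% (4.57%) and 0.75% of all genes. The TE changes of the 19 clock genes, late minus early log2(RPF/RNA), lay between -0.41 and 0.29, and none was called. Over the whole day some extremes of these genes lay inside the windows and others outside. Mean RNA-seq levels were lowest at ZT02 and highest at ZT10 for Dbp, a ratio of 39.04. For Arntl they were highest at ZT22 and lowest at ZT10, a ratio of 29.5. Nr1d1 reached its highest mean at ZT08 and Per2 only at ZT14. Of the 6 genes for enzymes that mark clock proteins for decay, Fbxl21, an F-box protein named after its values were seen, was the only one called in RPF-seq (1.09, 0.970, 1.10 and 1.58 RPKM early against 1.77, 1.72, 2.19 and 2.31 late, change 0.85 ± 0.15 SE, adjusted p = 0.04).

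**Figure D2:**
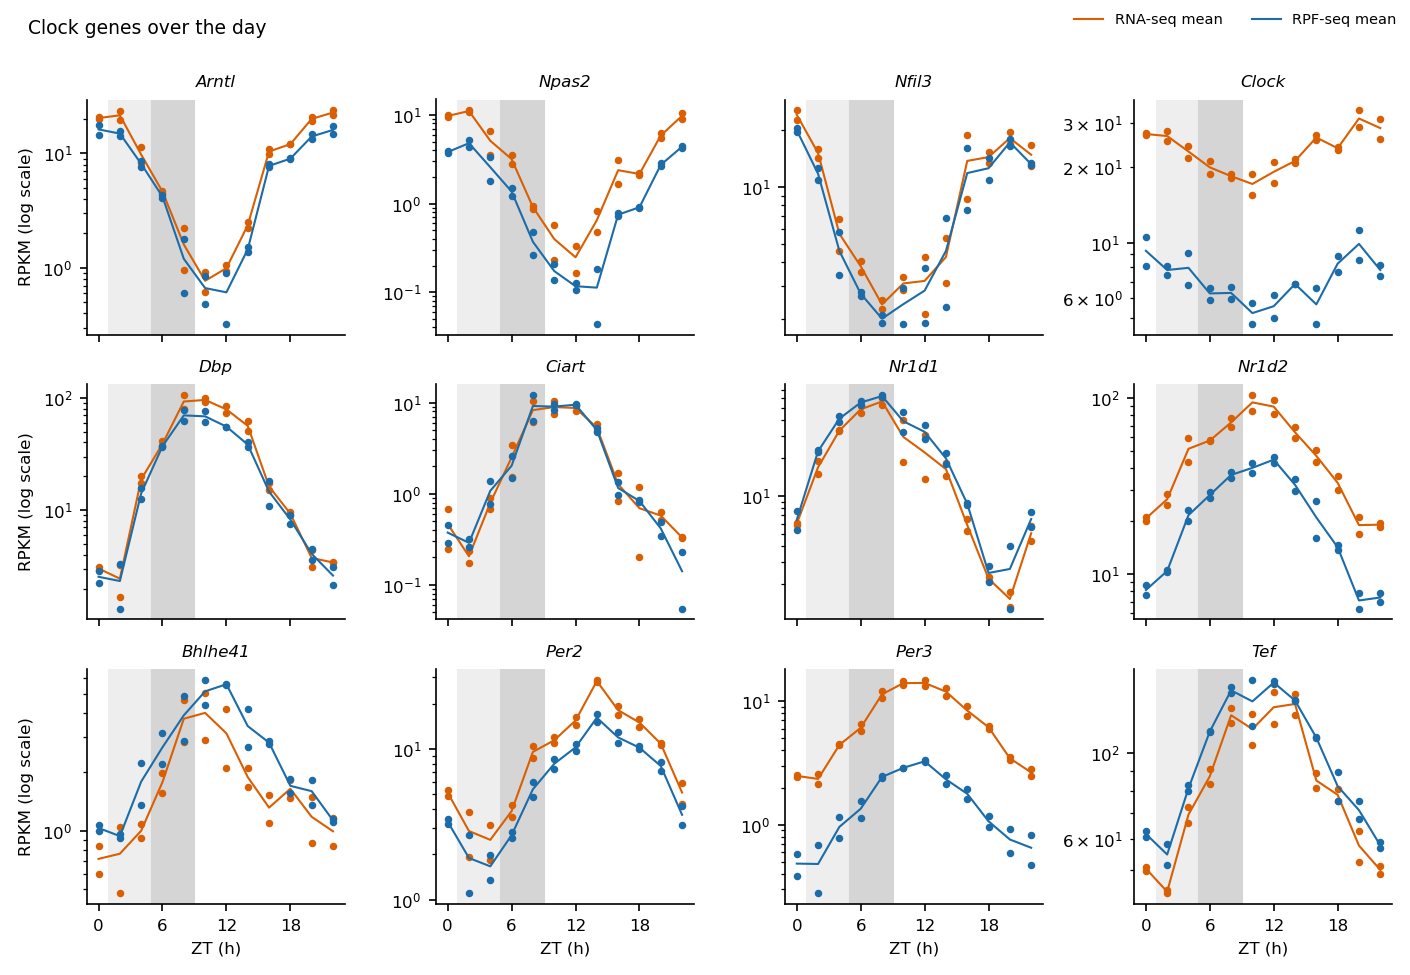
RPKM of 12 clock genes (y axis, log scale) in each pool over the whole day (x axis, ZT in hours) in RNA-seq and RPF-seq, with lines through the mean of the 2 pools of a time, the early window shaded light and the late window dark. Values of Arntl, Npas2 and Nfil3 are lower and those of Dbp, Ciart and Nr1d1 higher in the late window in both assays, Dbp in RNA-seq from a mean of 10.6 to 65.8 RPKM.

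Beyond single genes, the assays were compared over the genes called in RNA-seq. Of the 801 genes higher in RNA-seq, 659 (82.3%) also had a positive change in RPF-seq, against 56.9% of all genes tested, and 23 were called there. Of the 983 lower genes, 641 (65.2%) had a negative change in RPF-seq, against 43.1% of all genes, and 18 were called. The median change of the higher genes was 0.37 in RNA-seq and 0.13 in RPF-seq, and that of the lower genes -0.30 and -0.062. In the other direction, 50 of the 51 genes higher in RPF-seq and 36 of the 38 lower ones had the same sign in RNA-seq. In all, 41 genes were called in both assays with the same sign, 23 up and 18 down. The RNA-seq and RPF-seq libraries of a pool come from 1 lysate, so the assays share their animals.

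Besides clock genes, the genes that rose in both assays included transporters and enzymes of the tubule. The genes named in this paragraph were picked after their values were seen, except Slc9a3. Upp2, a uridine phosphorylase that breaks down uridine, gave 7.76, 10.6, 10.7 and 14.3 RPKM early against 15.2, 14.5, 21.5 and 20.7 late in RNA-seq and 11.5, 16.2, 14.7 and 22.4 RPKM early against 27.7, 24.3, 40.6 and 36.8 late in RPF-seq. In both assays all late pools exceeded all early pools, and the changes were 0.74 ± 0.18 (SE, adjusted p = 0.021) and 1.17 ± 0.18 (SE, adjusted p = 0.038). Slc9a3, the sodium/proton exchanger NHE3 of the proximal tubule, had 40.9, 42.9, 47.3 and 53.05 RPKM early against 51.5, 57.5, 56.3 and 61.4 late in RNA-seq and 38.6, 40.2, 45.2 and 59.7 RPKM early against 60.8, 66.1, 63.1 and 66.5 late in RPF-seq. Its windows overlapped in RNA-seq and not in RPF-seq, where the late values lay in a narrow range, and the changes were 0.30 ± 0.085 (SE, adjusted p = 0.035), with 0.076 after GC correction, and 0.64 ± 0.07 (SE, adjusted p = 0.029). Slc5a6, a sodium-dependent vitamin transporter, rose by 0.55 in RNA-seq and 0.72 in RPF-seq. The connexin gene Gjb2 rose by 0.45 in RNA-seq and 0.70 in RPF-seq. Pnpla2, which encodes the adipose triglyceride lipase ATGL, rose by 0.38 in RNA-seq and 0.36 in RPF-seq, and Slc25a10, the mitochondrial dicarboxylate carrier, by 0.31 in RNA-seq and 0.34 in RPF-seq. Among the genes that fell in both, Tardbp, the RNA-binding protein TDP-43, changed by -0.43 in RNA-seq and -0.55 in RPF-seq. Atp6v1g3, a subunit of the proton pump of intercalated cells, changed by -0.21 in RNA-seq and -0.58 in RPF-seq, and Npnt (nephronectin), an extracellular matrix protein of the developing kidney, by -0.45 in RNA-seq and -0.60 in RPF-seq. After GC correction the RNA-seq calls of Slc25a10 (adjusted p = 0.093), Tardbp (0.058) and Atp6v1g3 (0.14) did not hold, nor did the RPF-seq call of Slc25a10 (0.076). After removal of 1 library, the RNA-seq calls of Slc5a6, Pnpla2 and Tardbp held each time. For the rest the highest adjusted p arose without the first ZT08 library for Upp2 (0.07), Slc25a10 (0.06), Atp6v1g3 (0.089) and Npnt (0.066) and without the first ZT02 library for Slc9a3 (0.1) and Gjb2 (0.058).

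Some of the strongest decreases in RPF-seq had little counterpart in RNA-seq. Polr2l, a small subunit shared by the RNA polymerases, had 34.8, 31.4, 31.6 and 19.7 RPKM early against 15.4, 14.4, 16.1 and 22.1 late in RPF-seq. The second ZT04 library, left out of the change of -0.95 ± 0.13 (SE, adjusted p = 0.029), lay inside the late range. In RNA-seq the same gene changed by -0.16 ± 0.14 (SE). Glipr2, a protein of the Golgi membrane, gave 3.98, 3.43, 4.54 and 5.00 RPKM early against 2.32, 1.89, 2.31 and 1.99 late in RPF-seq, without overlap, against a change of -0.25 ± 0.22 (SE) in RNA-seq. Ypel2, a member of the yippee-like family, fell in both assays, from 18.5 to 8.65 RPKM in RNA-seq (-1.03 ± 0.29 SE, adjusted p = 0.038, and 0.12 after GC correction) and from 23.997 to 10.4 in RPF-seq (-1.33 ± 0.22 SE, adjusted p = 0.04). Of the fits without 1 library, the highest RNA-seq adjusted p was found without the first ZT02 library for Ypel2 (0.11).

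**Figure D3:**
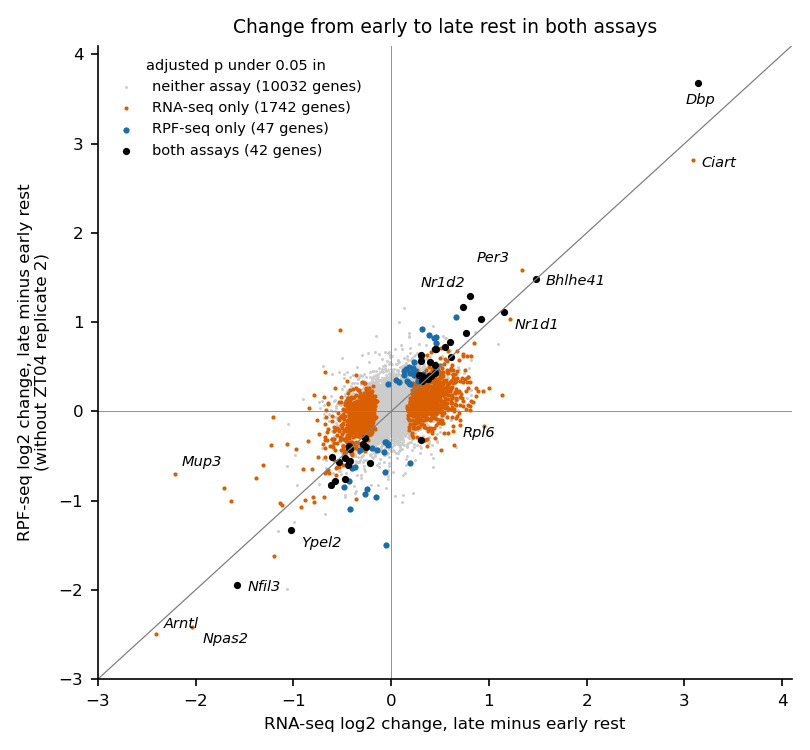
Change in RPF-seq (y axis, log2, 7 libraries) against change in RNA-seq (x axis, log2, 8 libraries) for the 11863 genes tested, coloured by the assays in which a gene was called, with a line where both are equal. Black points are the 42 genes called in both, 41 of them with the same sign, Dbp lies highest at 3.14 and 3.68, and Mup3 lies off the line at -2.21 and -0.71.

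Many chaperone genes were lower late in the rest phase. Of 16 genes for chaperones and folding enzymes of the endoplasmic reticulum, 9 were called lower and none higher in RNA-seq, and 5 lower and none higher in RPF-seq, against 8.29% and 0.32% of all genes. The median change of the list was -0.39 in RNA-seq and -0.39 in RPF-seq, beside -0.019 and 0.027 over all genes. Only 2 of the RNA-seq calls held after GC correction, those of Calr and Dnajb11, with a list median of -0.32, while 3 were lower in the GC-corrected RPF-seq, where the calls of Hsp90b1 (adjusted p = 0.054) and Canx (0.056) did not hold. Hsp90b1, which encodes the chaperone GRP94, had 521 and 434 RPKM at ZT02, 415 and 402 at ZT04, 338 and 354 at ZT06, and 274 and 259 at ZT08 in RNA-seq and 785 and 694 RPKM at ZT02, 787 and 643 at ZT04, 565 and 565 at ZT06, and 487 and 437 at ZT08 in RPF-seq. All late pools lay below all early pools in both assays (-0.54 ± 0.11 SE, adjusted p = 0.013 and -0.56 ± 0.10 SE, adjusted p = 0.04). Calr, the calcium-binding lectin chaperone calreticulin, gave 831, 734, 688 and 659 RPKM early against 565, 580.3, 492 and 469 late in RNA-seq (-0.47 ± 0.087 SE, adjusted p = 0.011) and changed by -0.53 ± 0.085 (SE, adjusted p = 0.038) in RPF-seq. Its membrane-bound relative Canx changed by -0.27 ± 0.06 (SE) and -0.30 ± 0.052 (SE). Dnajb11, a co-chaperone of BiP, fell in RNA-seq (-0.49 ± 0.086 SE, adjusted p = 0.009) and was not called in RPF-seq (-0.38 ± 0.11 SE). Sdf2l1, a subunit of a BiP complex, was the other way round, with 39.04, 32.000, 39.3 and 19.2 RPKM early against 21.1, 21.8, 13.8 and 13.6 late in RPF-seq (-1.09 ± 0.18 SE, adjusted p = 0.038) and an uncalled change of -0.42 ± 0.22 (SE) in RNA-seq. The early values of Sdf2l1 at the second ZT04 pool lay within the late range in both assays. Manf, a secreted stress-induced factor, changed in RNA-seq by -0.56 ± 0.17 (SE, adjusted p = 0.048), with the second ZT04 pool again within the late range, and its adjusted p was 0.11 after GC correction. Calr, Canx, Sdf2l1 and Creld2 (in RPF-seq -0.85 ± 0.15 SE, adjusted p = 0.04) were named after their values were seen. Across the fits without 1 library, the RNA-seq calls of Calr and Dnajb11 held each time. Otherwise the adjusted p was highest without the first ZT08 library for Hsp90b1 (0.0503), Canx (0.06) and Manf (0.12).

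The cytosolic heat shock chaperones moved in the same direction with fewer calls in RPF-seq. In RNA-seq 7 of 17 were lower and none higher, beside 8.29% of all genes lower, with a median of -0.32, and none remained called after GC correction. In RPF-seq 2 were lower, Chordc1 and Dnaja1, beside 0.32% of all genes, and Dnaja1 was not called there after GC correction (adjusted p = 0.072). Chordc1, an HSP90 co-chaperone, had 70.3, 54.1, 40.03 and 40.4 RPKM early against 31.04, 38.4, 32.004 and 32.5 late in RNA-seq and 152, 116, 104 and 90.03 RPKM early against 68.8, 77.1, 76.1 and 63.98 late in RPF-seq. The highest values were those of the first ZT02 pool, and the windows did not overlap in either assay (-0.58 ± 0.16 SE, adjusted p = 0.032 and -0.78 ± 0.12 SE, adjusted p = 0.038). Hsph1, a nucleotide exchange factor for HSP70, went from 90.8 ± 23.7 to 61.7 ± 6.33 RPKM in RNA-seq (SD, n = 4, change -0.52 ± 0.15 SE, adjusted p = 0.04). Dnaja1, an HSP40 partner of HSP70, changed by -0.42 ± 0.10 (SE) in RNA-seq and -0.42 ± 0.076 (SE) in RPF-seq. Of the 2 cold-inducible RNA-binding proteins, which respond inversely to temperature, Cirbp rose in RNA-seq with 20.8, 24.7, 28.996 and 28.9 RPKM early against 34.3, 30.5, 34.3 and 39.7 late (0.43 ± 0.11 SE, adjusted p = 0.027, and 0.14 after GC correction), and in RPF-seq its values were 30.96, 52.2, 66.2 and 72.3 RPKM early against 67.5, 65.8, 55.6 and 83.6 late and its change was not called. Over the fits without 1 library, the highest RNA-seq adjusted p was found without the first ZT08 library for Chordc1 (0.088), Hsph1 (0.1) and Dnaja1 (0.073) and without the second ZT02 library for Cirbp (0.074).

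Part of the genes of cholesterol synthesis and uptake fell. In RNA-seq 5 of 19 SREBP2 targets were lower and none higher (2 after GC correction), and in RPF-seq 2 were lower. Over all genes the lower share was 8.29% in RNA-seq, 1.86% after GC correction and 0.32% in RPF-seq. Idi1, an isomerase of the isoprenoid branch, had 178 and 154 RPKM at ZT02, 133 and 163 at ZT04, 98.7 and 103 at ZT06, and 85.5 and 87.7 at ZT08 in RNA-seq and 361 and 339 RPKM at ZT02, 336 and 414 at ZT04, 328 and 297 at ZT06, and 292 and 247 at ZT08 in RPF-seq. The late pools were below the early pools in both assays, and the step was larger in RNA (-0.74 ± 0.091 SE, adjusted p = 0.0027) than in footprints (-0.25 ± 0.088 SE, adjusted p = 0.18). Its TE change was 0.42 ± 0.11 (SE) and was not called (adjusted p = 0.19). Msmo1, a sterol demethylase, gave 40.01, 46.04, 35.1 and 33.5 RPKM early against 26.6, 24.9, 24.5 and 20.1 late in RNA-seq (-0.68 ± 0.11 SE, adjusted p = 0.0074, and 0.054 after GC correction), while its RPF-seq windows overlapped. Fdps, which makes farnesyl diphosphate, fell in both assays, with 55.1, 58.2, 53.4 and 48.5 RPKM early against 43.3, 42.5, 42.6 and 38.4 late in RPF-seq (-0.41 ± 0.065 SE, adjusted p = 0.038) and -0.43 ± 0.10 (SE) in RNA-seq. In fits without 1 library, the RNA-seq calls of Idi1 and Msmo1 held each time. The highest adjusted p then was found without the second ZT02 library for Fdps (0.054).

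**Figure D4:**
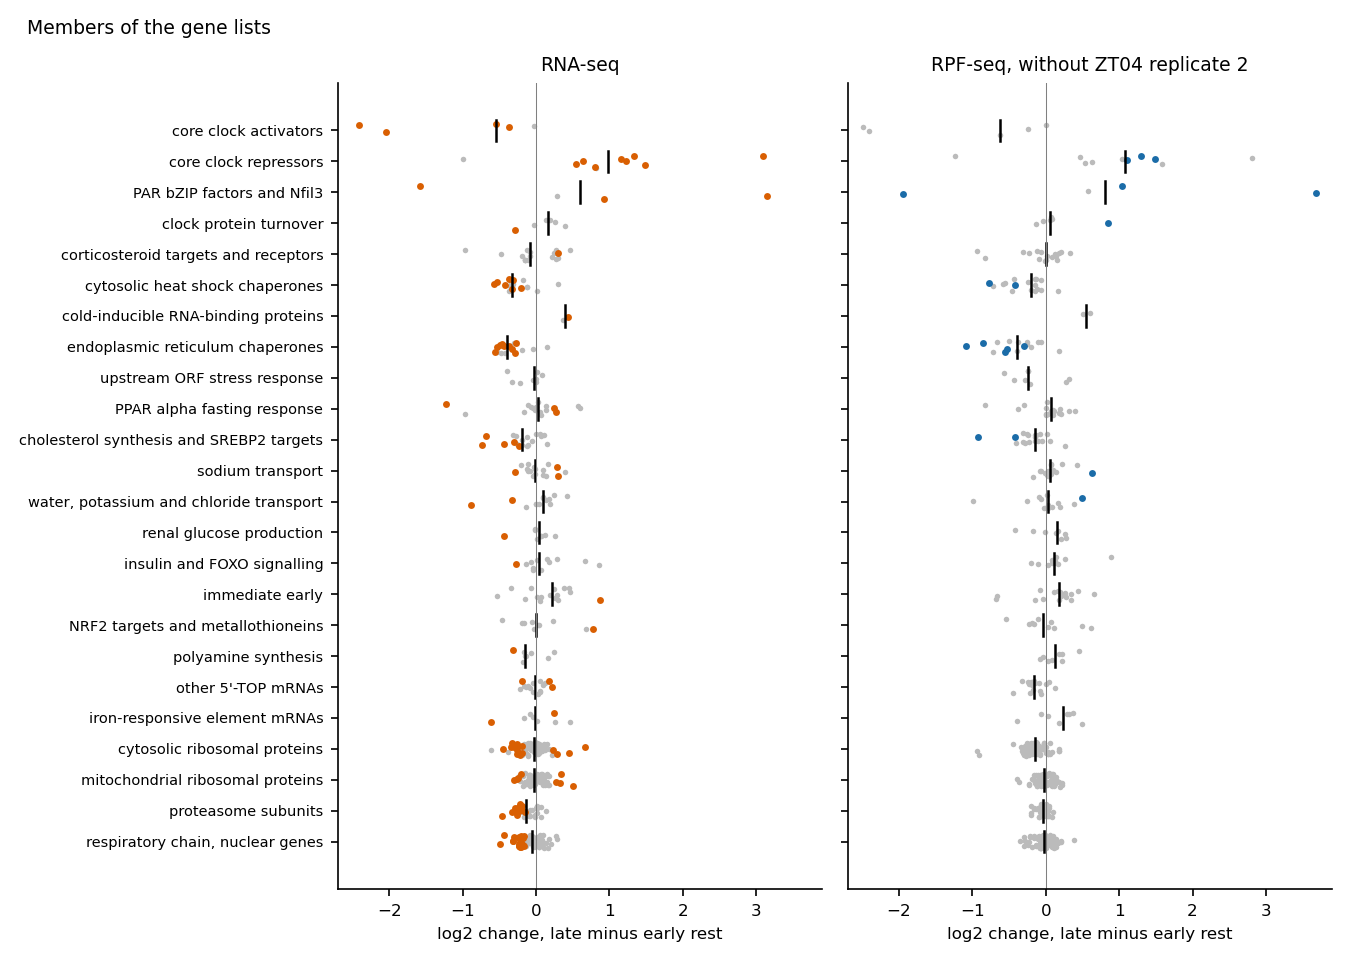
Log2 change of every tested member (x axis) of the 24 gene lists (rows) in RNA-seq, left, and in RPF-seq without the second ZT04 library, right, with called genes coloured and a black bar at the list's median. The medians of the endoplasmic reticulum chaperones lie at -0.39 in RNA-seq and -0.39 in RPF-seq, those of the proteasome subunits at -0.14 and -0.04.

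Transport and metabolic genes of the kidney gave single changes rather than shifts of whole lists. Among 17 genes of sodium transport, 2 were higher and 1 lower in RNA-seq, near the shares over all genes of 6.75% and 8.29%, and Slc9a3 alone was called in RPF-seq. Slc12a3, the thiazide-sensitive sodium chloride cotransporter, had 259.9, 242, 304 and 233 RPKM early against 318, 308, 320.3 and 310.1 late in RNA-seq (0.28 ± 0.075 SE, adjusted p = 0.031), where the late pools were above the early ones, and changed by 0.078 ± 0.066 (SE) in RPF-seq. Stk39, the kinase SPAK that phosphorylates this cotransporter, fell in RNA-seq from 27.1 ± 1.21 RPKM early (SD, n = 4) to 22.3 ± 1.16 late (-0.28 ± 0.063 SE, adjusted p = 0.018). After GC correction none of these 3 RNA-seq calls held. Of 13 genes for water, potassium and chloride, Avpr1a, a vasopressin receptor, had 11.1, 11.4, 10.4 and 9.67 RPKM early against 8.52, 6.15, 4.49 and 4.48 late in RNA-seq. Its values were lowest at ZT08 and did not overlap between windows (-0.89 ± 0.18 SE, adjusted p = 0.012, and 0.017 after GC correction). Kcnj1, the potassium channel ROMK, changed by -0.33 ± 0.056 (SE, adjusted p = 0.0081) in RNA-seq, with 0.24 after GC correction, and changed by -0.062 ± 0.064 (SE) in RPF-seq. Aqp3, a water and glycerol channel of the collecting duct named after its values were seen, rose in RPF-seq with 155, 150.2, 168 and 203 RPKM early against 208, 213, 232 and 236 late. All late pools were above the early ones (0.49 ± 0.067 SE, adjusted p = 0.029), whereas its RNA-seq windows overlapped (0.18 ± 0.088 SE). Leaving out 1 library at a time, the RNA-seq calls of Avpr1a and Kcnj1 held each time. Otherwise the adjusted p was highest without the second ZT02 library for Slc12a3 (0.09) and without the first ZT02 library for Stk39 (0.056).

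Of 8 genes of renal glucose production, G6pc, the last enzyme of gluconeogenesis, was called lower in RNA-seq, with 407, 450.3, 330.3 and 316 RPKM early against 274, 269, 300.1 and 260.5 late (-0.43 ± 0.10 SE, adjusted p = 0.02, and 0.053 after GC correction). The PPARα list of 17 fasting genes had 2 higher and 1 lower in RNA-seq, again near the shares of 6.75% and 8.29% over all genes. Cpt1a, which admits fatty acids to mitochondria, rose from 186 ± 10.9 RPKM early (SD, n = 4) to 220.1 ± 7.59 late in RNA-seq (0.25 ± 0.055 SE, adjusted p = 0.017), and Vnn1, a pantetheinase, by 0.27 ± 0.074 (SE, adjusted p = 0.032). Both held after GC correction, at adjusted p of 0.028 and 0.035. The gene that fell, Fabp1, is described with the plasma proteins below. Klf9, a corticosteroid target, was the only one of 17 such genes called before GC correction, at 108, 105, 133 and 107 RPKM early against 137, 144, 140.2 and 134 late in RNA-seq (0.30 ± 0.074 SE, adjusted p = 0.023, and 0.084 after GC correction). After the correction 1 other gene of this list was lower in RNA-seq. Mt2, a metallothionein, gave 73.9, 34.95, 56.7 and 51.6 RPKM early against 85.99, 83.3, 93.8 and 95.7 late (0.77 ± 0.17 SE, adjusted p = 0.017) in RNA-seq, and Zfp36, an immediate early gene whose product speeds mRNA decay, 6.53, 11.5, 9.15 and 5.96 RPKM early against 11.7, 17.996, 13.3 and 16.6 late (0.87 ± 0.20 SE, adjusted p = 0.018, and 0.07 after GC correction). Late pools were above early pools for both in RNA-seq, and in RPF-seq neither was called. Tfrc, the transferrin receptor and a transcript with iron-responsive elements, fell from 72.1 ± 5.76 RPKM early (SD, n = 4) to 47.6 ± 6.91 late in RNA-seq (-0.61 ± 0.10 SE, adjusted p = 0.0076, and 0.072 after GC correction). From other lists, 1 gene each was lower in RNA-seq without holding after GC correction: Ccng2 of the FOXO targets (-0.27 ± 0.07 SE) and Amd1 of polyamine synthesis (-0.31 ± 0.075 SE). Epas1, the hypoxia factor HIF-2α, rose by 0.24 ± 0.068 (SE) in RNA-seq, likewise without holding. None of the 8 genes of the upstream ORF stress response was called in either assay before GC correction. After it 1 was lower in RNA-seq, beside 1.86% of all genes. With each library removed in turn, the RNA-seq call of Tfrc held each time. For the rest the highest adjusted p arose without the first ZT08 library for Cpt1a (0.057), Vnn1 (0.1), Mt2 (0.055), Ccng2 (0.081) and Epas1 (0.1), without the first ZT02 library for G6pc (0.064), Zfp36 (0.056) and Amd1 (0.07) and without the second ZT02 library for Klf9 (0.07).

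Lists of large protein complexes had calls in RNA-seq and, before GC correction, none in RPF-seq. After it, 2 genes of the respiratory chain and 1 mitochondrial ribosomal protein gene were lower in RPF-seq. Of 74 nuclear genes of the respiratory chain, 21 were lower and none higher in RNA-seq, and 9 were lower after GC correction, beside 8.29% and 1.86% of all genes. The list's median was -0.06 in RNA-seq and -0.021 in RPF-seq, where no member was called. Uqcrb, a subunit of complex III, had 698, 671, 618 and 759 RPKM early against 492, 558, 476 and 495 late in RNA-seq, without overlap (-0.44 ± 0.072 SE, adjusted p = 0.0074), and 888 to 1094 RPKM early and 769.9 to 967 late in RPF-seq. Uqcrq of complex III and Ndufc1 of complex I changed by -0.49 ± 0.12 (SE) and -0.32 ± 0.068 (SE) in RNA-seq. Of 36 proteasome genes 14 were lower in RNA-seq, 3 after GC correction, and none was called in RPF-seq. Psmd11, a lid subunit, fell from 56.3 ± 7.01 RPKM early (SD, n = 4) to 40.6 ± 2.94 late in RNA-seq (-0.47 ± 0.09 SE, adjusted p = 0.012). Psma3 and Psmd14, with changes of -0.32 ± 0.066 (SE) and -0.29 ± 0.064 (SE), were not called after GC correction (adjusted p = 0.18 and 0.43). Cytosolic ribosomal proteins were mixed in RNA-seq, with 4 of 80 higher and 11 lower (3 and 4 after GC correction), and none was called in RPF-seq. Their median RPF-seq change was -0.15, with 11 of 80 above 0. Over all genes the RPF-seq median was 0.027, and 56.9% were above 0. Rpl6 was the highest of them, with 269.9 and 276 RPKM at ZT02, 299 and 250.3 at ZT04, 437 and 444 at ZT06, and 425 and 429 at ZT08 in RNA-seq and 281 and 218 RPKM at ZT02, 239.6 and 283 at ZT04, 223 and 262 at ZT06, and 207 and 242 at ZT08 in RPF-seq. The step in RNA lay between ZT04 and ZT06 (0.67 ± 0.058 SE, adjusted p = 0.0014), and footprints showed no such step (-0.075 ± 0.10 SE). Rps27l moved the other way in RNA-seq, from 404 ± 26.6 RPKM early (SD, n = 4) to 294 ± 8.90 late (-0.45 ± 0.056 SE, adjusted p = 0.0028), with an RPF-seq change of 0.00027 ± 0.074 (SE). Ribosomal protein genes have many processed pseudogenes and Rps27l a close paralog, so how reads were shared between copies adds uncertainty to these values. Of 71 mitochondrial ribosomal proteins, 4 were higher and 4 lower in RNA-seq (1 and 0 after GC correction), below the shares of 6.75% and 8.29% over all genes. Mrpl10 led them at 41.9, 44.2, 46.5 and 38.7 RPKM early against 59.2, 65.2, 63.04 and 56.1 late (0.51 ± 0.071 SE, adjusted p = 0.0043). Mrpl38 and Mrpl52 changed by 0.34 ± 0.076 (SE) and 0.33 ± 0.066 (SE) and were not called after GC correction (adjusted p = 0.11 and 0.085). The translation factors whose mRNAs begin with a TOP motif moved little in RNA-seq: Eef2 by 0.21 ± 0.062 (SE), Eif3f by 0.18 ± 0.054 (SE) and Eef1g by -0.19 ± 0.051 (SE). After GC correction Eef2 (adjusted p = 0.19) and Eif3f (0.44) were not called. In RPF-seq the list of 16 other TOP mRNAs had a median change of -0.17, with 3 of 16 above 0 and 0 called. On removal of single libraries, the RNA-seq calls of Uqcrb, Psmd11, Rpl6, Rps27l, Mrpl10 and Mrpl52 held each time. The highest adjusted p then was found without the first ZT08 library for Ndufc1 (0.055), Psma3 (0.052), Psmd14 (0.056), Mrpl38 (0.056), Eef2 (0.13) and Eef1g (0.092) and without the first ZT02 library for Uqcrq (0.074) and Eif3f (0.13).

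Among called genes with a mean of at least 1 RPKM in each assay, 3 of the 6 largest decreases in RNA-seq belonged to urinary and plasma proteins known mainly from liver, and the other 3 were the clock genes Arntl, Npas2 and Nfil3. Mup3, a major urinary protein, gave 5.22 and 3.31 RPKM at ZT02, 3.87 and 5.06 at ZT04, 0.215 and 1.57 at ZT06, and 0.702 and 1.82 at ZT08 in RNA-seq and 10.6 and 6.28 RPKM at ZT02, 11.001 and 14.3 at ZT04, 3.42 and 5.18 at ZT06, and 5.10 and 9.98 at ZT08 in RPF-seq. All late RNA-seq values were below the early ones, whereas the RPF-seq windows overlapped (-2.21 ± 0.46 SE, adjusted p = 0.014 and -0.71 ± 0.32 SE, adjusted p = 0.28). Mup20 had 7.76, 7.09, 7.03 and 7.44 RPKM early against 0.656, 3.65, 1.73 and 6.03 late in RNA-seq (-1.64 ± 0.48 SE, adjusted p = 0.042), and Serpina3k, a serine protease inhibitor, 3.68, 2.86, 3.49 and 2.92 RPKM early against 0.284, 1.58, 0.618 and 2.19 late (-1.71 ± 0.44 SE, adjusted p = 0.028). Their levels varied several-fold among the late pools, and neither was called after GC correction. Fabp1, the liver fatty acid binding protein, changed by -1.23 ± 0.22 (SE, adjusted p = 0.0093) in RNA-seq. Named after their values were seen, Ahsg (fetuin A), Hpx (hemopexin), Rbp4, Apoa1, Fga and Alb changed by -1.31, -1.39, -1.06, -0.90, -0.79 and -0.74 in RNA-seq, each with an adjusted p under 0.05, and none of these was called in RPF-seq. The calls of Hpx (adjusted p = 0.058), Fga (0.062) and Alb (0.13) did not hold after GC correction. For Mup3, Mup20 and Ahsg all 18 RNA-seq libraries from ZT06 to ZT22 lay below all 6 from ZT00 to ZT04, a border described below that cannot be told apart from a batch of libraries. Mup genes and Serpina3k belong to families of near-identical copies, so their values are uncertain. Of the 6 liver markers examined as a list, Cyp7a1 was not among the genes in the files. Of the 5 others, 2 were called lower and none higher in RNA-seq, beside 8.29% of all genes lower. The RNA-seq change was above 0 for 2 of the 5, at most 0.42, and the list's median was -0.033. The list's summed RNA-seq level in RPKM was 251 to 376 early and 289 to 341 late. In RPF-seq it was 378 to 591 early and 383 to 496 late. Most of each sum came from Ttr, at 268 RPKM early and 276 late in RNA-seq. Without 1 library at a time, the RNA-seq calls of Fabp1 and Ahsg held each time. Otherwise the adjusted p was highest without the first ZT08 library for Mup3 (0.051), Mup20 (0.11), Serpina3k (0.085), Hpx (0.084), Apoa1 (0.079), Fga (0.077) and Alb (0.13) and without the first ZT02 library for Rbp4 (0.074). Livers of the same mice were collected in the study, and whether liver RNA has a part in these values was not tested.

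The kidney's own markers were present throughout. The summed RNA-seq level of 6 proximal tubule markers was 8041 to 8816 early and 8820.1 to 9362 late RPKM, that of 4 thick ascending limb markers 3087 to 3156 early and 2902 to 3204 late, and that of 4 distal convoluted tubule markers 707 to 846 early and 610.5 to 761 late. The 4 principal cell markers summed to 159 to 214 early and 190.4 to 250.5 late and the 4 intercalated cell markers to 156 to 178 early and 150.5 to 176 late. In RNA-seq only the proximal tubule sums of these 5 lists did not overlap between windows, and in RPF-seq those of the proximal tubule (10525 to 11539 early and 11543 to 12349 late) and of the principal cells (332 to 416 early and 422 to 491 late) did not. Of the 4 distal convoluted tubule markers 1, Slc12a3, was called higher and 2 lower in RNA-seq, with a median of -0.31, and none was called after GC correction. Of the others, 1 proximal tubule marker was higher and 1 thick ascending limb marker lower in RNA-seq, and 1 principal cell marker was higher in RPF-seq. The shares over all genes, for these marker counts and those that follow, were 6.75% higher and 8.29% lower for RNA-seq. For RPF-seq they were 0.43% and 0.32%. None of the 7 adrenal and 4 skeletal muscle markers was among the genes in the files. The podocyte, endothelial and stromal lists had no member called in either assay, nor had the 4 blood genes or the 3 fat genes tested, and 1 of 6 immune markers was lower in RNA-seq.

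For part of the genes the border between the windows was also a border in the whole day. This pattern was noticed in the values of Rpl6 and then counted. In RNA-seq, all 18 libraries from ZT06 to ZT22 were above all 6 libraries from ZT00 to ZT04 for 51 genes. They were below those 6 libraries for 20 genes, out of 11863 tested. Of these genes 48 and 12 were called between the rest windows, beside 15% of all genes. The pattern itself requires rest windows that do not overlap, so a high share of calls is built into it. In RPF-seq the pattern held for 5 and 6 genes, none of them called, and no gene showed it in both assays. Rpl6 ranged over 250.3 to 345 RPKM at ZT00 to ZT04 and 377 to 561 from ZT06 to ZT22 and Mrpl10 over 38.7 to 49.9 RPKM at ZT00 to ZT04 and 56.1 to 72.2 from ZT06 to ZT22 in RNA-seq. Cry2, Mrpl52, Pqbp1 and the mitochondrial transcript mt-Atp6 were also among the genes above, and Mup3, Mup20 and Ahsg among those below. At ZT22 the values of Rpl6 and Mrpl10 were still above those of ZT00 to ZT04, which the pattern requires. The labels name no library batch, and a batch of RNA-seq libraries that ended at ZT04 and the time of day cannot be told apart here.

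**Figure D5:**
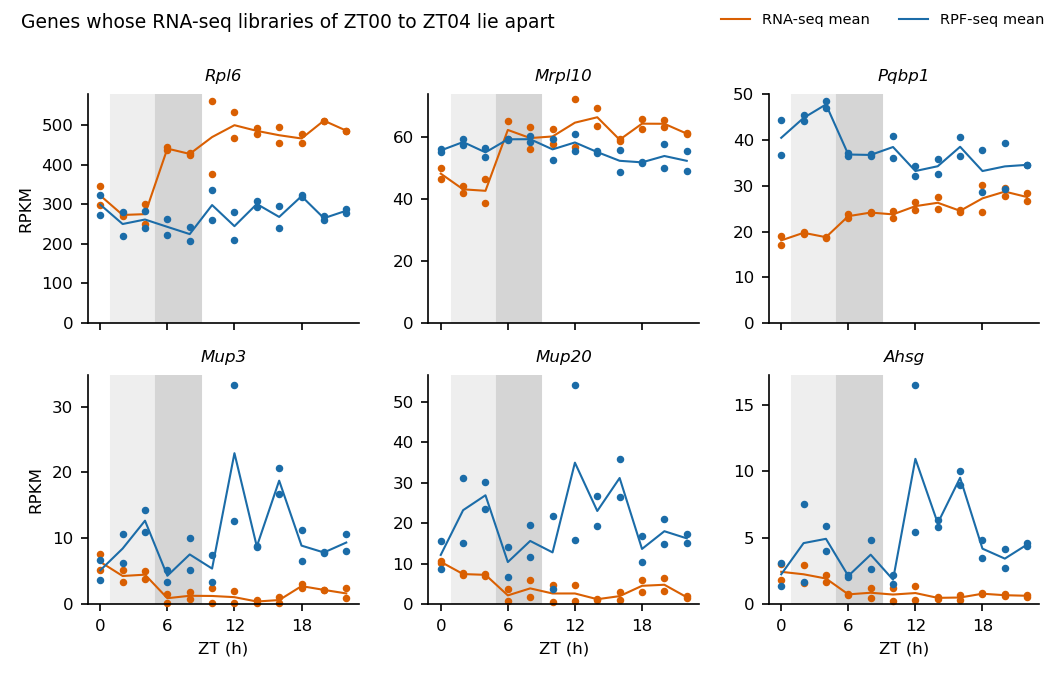
RPKM of 6 of these genes (y axis, from 0) in every RNA-seq and RPF-seq library of the day (x axis, ZT in hours), with lines through the mean of the 2 pools of a time, the early window shaded light and the late window dark. For Rpl6 the RNA-seq libraries up to ZT04 lie at 250.3 to 345 and the later ones at 377 to 561 RPKM, and the RPF-seq libraries show no such border.

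Translation efficiency was compared as the difference between log2 RPF and log2 RNA of the same pool. No gene was called among 11863 (0%, limma, 8 pools), with a lowest adjusted p of 0.063 and 1768 genes at an unadjusted p under 0.05. The coding GC trend was carried into TE with the opposite sign (Spearman -0.40 across genes). The lowest adjusted p was shared by 3 genes, of which 2 have a symbol in the tables used, and both are named for that reason. Pqbp1, a polyglutamine-binding protein involved in splicing, gave 19.96, 19.5, 18.9 and 18.7 RPKM early against 22.9, 23.9, 23.999 and 24.3 late in RNA-seq and 45.4, 44.3, 48.6 and 46.99 RPKM early against 36.6, 37.2, 36.6 and 36.9 late in RPF-seq. RNA rose and footprints fell, each without overlap, and Pqbp1 was the only gene called in both assays with opposite signs (0.30 ± 0.058 SE, adjusted p = 0.011 and -0.32 ± 0.057 SE, adjusted p = 0.04). In RNA-seq it is one of the genes with a border at ZT04 in the whole day (17.2 to 19.96 RPKM at ZT00 to ZT04 and 22.9 to 30.3 from ZT06 to ZT22), so its RNA and TE changes cannot be told apart from a batch of libraries. Its log2 TE was 1.18, 1.18, 1.36 and 1.33 early against 0.67, 0.64, 0.61 and 0.60 late, a change of -0.63 ± 0.073 (SE, adjusted p = 0.063). Smim26, a small protein of the mitochondrial membrane, moved the other way, with 39.2, 39.2, 34.6 and 39.98 RPKM early against 27.2, 29.1, 30.7 and 29.6 late in RNA-seq and 51.98, 48.3, 50.05 and 51.99 RPKM early against 56.9, 61.4, 62.7 and 57.7 late in RPF-seq. Its TE changed by 0.63 ± 0.074 (SE, adjusted p = 0.063).

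An interval of the same length in the active phase was set beside the rest phase: ZT14 and ZT16 against ZT18 and ZT20, 4 pools each, with the difference of the changes tested in 1 model per assay. The rest change exceeded the active change for 1451 genes in RNA-seq (12.2%) and was below it for 1855 (15.6%). In RPF-seq, with all 16 libraries, these numbers were 246 (2.07%) and 167 (1.41%). Of the 19 clock genes 18 differed in RNA-seq and 16 in RPF-seq, and the fitted signs were opposite in the phases for all 19 in RNA-seq and for 18 in RPF-seq. Dbp, for example, changed by 3.14 in the rest phase and by -2.34 in the active phase in RNA-seq, and Arntl by -2.41 and 1.62. Hsp90b1 changed by -0.54 and 0.65, and its difference of -1.19 ± 0.19 (SE) had an adjusted p of 0.00053. For Rpl6 the active change was 0.025, against 0.67 at rest. The active windows carried a GC trend of the other sign in RNA-seq (Spearman -0.42 across genes), and after GC correction 911 genes differed upward and 925 downward.

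Windows that do not overlap give a simpler count of the same data. All 4 late pools were above all 4 early pools for 1034 genes in RNA-seq (8.72%) and below them for 1368 (11.5%), and in RPF-seq, with 8 libraries, for 633 (5.34%) and 364 (3.07%). Of the 19 clock genes, 11 were apart in RNA-seq and 11 in RPF-seq.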

How the data were processed

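RNA-seq and RPF-seq of mouse kidney were measured at 12 timepoints every 2 h with 2 pools each, 24 libraries per assay. The values are RPKM as deposited: the authors trimmed reads with cutadapt, kept footprint-sized inserts, removed reads of rRNA and tRNA and mapped the rest to Ensembl transcripts with Bowtie2 (2.2.1) and to the genome (GRCm38.p2) with TopHat2 (2.0.11), ran Cufflinks (2.2.1), counted reads over coding sequence, scaled libraries by upper quantile (edgeR) and divided by length. Such scaling hides a change shared by all genes. Reads per library are not in these values. Depth relative to other libraries was read from the steps between low RPKM values.

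From these values, log2(RPKM + 0.1) of the 8 libraries per assay was compared between windows with limma (3.58.1, lmFit and eBayes with trend, R 4.3.3) over 11863 of 12423 genes listed in both assays, those with a median of at least 0.5 RPKM over the 24 libraries of each. Genes were called at a Benjamini-Hochberg adjusted p under 0.05. TE was log2 RPF minus log2 RNA of a pool. The GC correction subtracted a loess curve (span 0.3) of each library's deviations on coding GC. The steps were tested on simulated data. Named were, among genes with mean RPKM of at least 1, the 6 highest and 6 lowest called changes of RNA-seq and of RPF-seq, up to 4 of each in TE, all clock genes, and at most 3 called genes of each list, in all 61 genes. A few further genes that met the rule are not reported here, though they remain in the counts of lists and of all genes. Since RPF-seq and TE had no calls with all 8 libraries, genes named for RPF-seq without the second ZT04 library (with the same rule) and for TE were chosen after the values were seen. The windows and gene lists were chosen with earlier results of these data known. Coding GC came from the longest annotated coding sequence of each gene in GENCODE, and promoters came from RefSeq. Pools came from separate mice, but the labels give no batch of libraries.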

Additional observations from a re-analysis of the deposited data

Results flagged for a closer look

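Values far from the other pools of their window were looked for in the named genes, and 8 of 244 groups of 4 held one, where chance gives about 1 in 20. Klf9 had 133 RPKM in RNA-seq in the first ZT04 library, and 105 to 108 in the other early pools. In RPF-seq, Dnajb11 had 78.999 RPKM in the second ZT08 library, and 105 to 109 in the other late pools. Fabp1 had 1.95 RPKM in RNA-seq in the second ZT06 library, and 1.23 to 1.31 in the other late pools. The RPF-seq value of Fdps was 38.4 RPKM in the second ZT08 library, and 42.5 to 43.3 in the other late pools. Avpr1a had 4.37 RPKM in RPF-seq in the second ZT04 library, and 10.999 to 11.8 in the other early pools. G6pc had 454 RPKM in RPF-seq in the first ZT06 library, and 542 to 560.2 in the other late pools. Eef2 stood at 468 RPKM in RPF-seq in the first ZT02 library, and 322 to 332 in the other early pools. Rps27l had 543 RPKM in RPF-seq in the first ZT06 library, and 641 to 650.1 in the other late pools.

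In RNA-seq, the rest phase change differed from that of the active phase (late minus early in each, difference of log2 changes, limma, adjusted p under 0.05) in 49 of the 61 genes named by the rule. Of all genes 27.9% differed. Genes outside the clock lists were picked for a called RNA-seq change at rest, which enters the difference, so a high share is partly built in. Among clock genes the difference in RNA-seq was above 0 with Dbp 5.48, Ciart 5.12, Nr1d1 3.52, Per3 2.44, Per1 2.05, Per2 2.04, Nr1d2 1.94, Bhlhe41 1.66, Tef 1.59, Bhlhe40 0.98, Cry2 0.77 and Hlf 0.70. It was below 0 with Arntl -4.03, Npas2 -3.52, Nfil3 -2.72, Cry1 -1.29 and Clock -0.57. Of the other genes the difference in RNA-seq was above 0 with Zfp36 1.34, Mt2 1.08, Slc9a3 0.67, Rpl6 0.64, Cpt1a 0.56, Vnn1 0.54, Slc12a3 0.48, Mrpl10 0.47, Epas1 0.39 and Eef2 0.33. It was below 0 with Mup3 -4.56, Serpina3k -3.27, Mup20 -3.18, Fabp1 -1.58, Avpr1a -1.53, Idi1 -1.21, Tfrc -1.19, Hsp90b1 -1.19, Msmo1 -1.08, Fdps -0.99, Uqcrb -0.91, Dnajb11 -0.83, G6pc -0.77, Psma3 -0.66, Chordc1 -0.64, Psmd14 -0.61, Rps27l -0.56, Ndufc1 -0.54, Psmd11 -0.49, Eef1g -0.37, Kcnj1 -0.31 and Amd1 -0.30.

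In RPF-seq, the rest phase change differed from that of the active phase (late minus early in each, difference of log2 changes, limma, adjusted p under 0.05) in 26 of the same 61 genes. Of all genes 3.48% differed. The RPF-seq libraries share their pools with the RNA-seq libraries by which genes were picked. Among clock genes the difference in RPF-seq was above 0 with Dbp 5.18, Ciart 4.55, Nr1d1 3.39, Per3 2.44, Nr1d2 2.43, Bhlhe41 2.11, Per2 1.77, Tef 1.63, Per1 1.51, Bhlhe40 0.92 and Hlf 0.60. It was below 0 with Npas2 -4.14, Arntl -4.02, Nfil3 -2.71 and Clock -0.84. Of the other genes the difference in RPF-seq was above 0 with Mt2 1.28, Slc9a3 0.72, Vnn1 0.64, Cpt1a 0.47 and Slc12a3 0.34. It was below 0 with Hsp90b1 -0.97, Fdps -0.92, Msmo1 -0.84, Idi1 -0.71, Tfrc -0.70 and Uqcrq -0.40.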

How the results depend on the processing

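The count of 1784 genes called in RNA-seq stayed within 1.5 times of itself with other pseudocounts, no minimum or a minimum of 2 RPKM, quantile normalisation, the 4 timepoints modelled, or the replicate block (1888 genes). It fell to 1147 with the spread taken from all 24 libraries and to 539 after GC correction, and leaving out 1 library gave 385 to 3381 (146 to 682 with GC correction). Quantile normalisation turned the balance of RNA-seq calls from 801 higher and 983 lower to 883 higher and 777 lower, so the balance between directions is not a stable result. In RPF-seq the 0 calls became 26 with the 4 timepoints modelled, 124 with the spread from all 24 libraries, and 0 to 89 without 1 library (0 to 87 with GC correction), the top value being that without the second ZT04 library, which then gave 0 to 45 without a further library. TE gave 3 calls with a minimum of 2 RPKM, 3 with a pseudocount of 1, 10 with the spread from all 24 libraries and 0 without any 1 library. The rest minus active count fell from 3306 to 1836 in RNA-seq after GC correction and spanned 2500 to 3833 without 1 library, and 181 to 524 in RPF-seq. The cause of these shifts was not tested. GC correction and the fits without the second ZT04 library were chosen after seeing the data.

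Replicate numbers did not pair the samples: deviations of same-numbered pools correlated between -0.13 and 0.23 in RNA-seq and between -0.054 and 0.11 in RPF-seq. With the replicate block, RNA-seq gave 849 higher and 1039 lower genes, RPF-seq 0, TE 0, and the rest minus active differences 3285 in RNA-seq and 393 in RPF-seq. No named change that was called turned its direction under these alternatives. Depth is known only relative to other libraries, so counting error could not be given.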

Other observations

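Transcripts of the mitochondrial genome, 12 of which were tested, moved unevenly in RNA-seq. This group was looked at after its values were seen. In RNA-seq 4 were called higher late and 1 lower, beside 6.75% and 8.29% of all genes. The transcript mt-Atp6, which encodes a subunit of the ATP synthase, went from a mean of 11129 RPKM early to 17100.1 late (log2 change 0.63, limma adjusted p = 0.0089), and mt-Nd2 and mt-Nd4, subunits of complex I, changed by 0.75 and 0.65. All 18 RNA-seq libraries from ZT06 to ZT22 lay above all 6 from ZT00 to ZT04 for mt-Atp6, so its change cannot be told apart from a batch of libraries. The gene called lower was mt-Co1, a subunit of cytochrome c oxidase, with a change of -0.28 (limma adjusted p = 0.02, and 0.996 after GC correction). With single libraries removed, the RNA-seq calls of mt-Atp6, mt-Nd2 and mt-Nd4 held each time. Otherwise the adjusted p was highest without the first ZT08 library for mt-Co1 (0.07). In RPF-seq without the second ZT04 library 2 were called higher, mt-Nd1 at 0.56 and mt-Nd5 at 0.42, beside 0.43% of all genes. With all 8 libraries these changes were 0.27 and 0.11 and neither was called, and after GC correction of the 7 libraries mt-Nd5 was not called (adjusted p = 0.074). Cytosolic ribosomes do not read these transcripts, and except for mt-Nd6 their mean RPKM was several-fold lower in RPF-seq than in RNA-seq. For mt-Atp6 the RPF-seq means were 1148 RPKM early and 1130.1 late over all 8 libraries.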
